A study of Mus musculus with 6 samples.

Results

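The transcripts described here encode the proteins of the mitochondrial ribosome. They were taken by name, as every row of the deposited table whose symbol starts with Mrpl (large subunit) or Mrps (small subunit) followed by a number and at most 1 letter. The rule found 78 of 25164 rows, and their measured values played no role in it. Of these, 77 encode subunits of the ribosome, 51 of the large subunit and 26 of the small one. Mrps18a and Mrps30 are counted with the large subunit, where their proteins sit. Mrps36 carries the name but its protein is not a ribosomal subunit.

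The mitochondrial ribosome translates the few proteins that mitochondrial DNA encodes, all of them parts of the respiratory chain and the ATP synthase. Its RNAs come from mitochondrial DNA, while all of its proteins are encoded in the nucleus, made in the cytosol and imported, so many scattered genes have to supply 1 particle. Some of the proteins descend from bacterial ribosomal proteins and the others were acquired in the mitochondrial lineage. Oocytes hold a very large store of mitochondria, and variants of the human genes MRPS22, MRPS7 and MRPL50 have been tied to ovarian insufficiency.

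RNA of whole ovaries of C57BL/6 mice at day 1 was sequenced in 6 libraries. The 3 cKO libraries carry the modification hnRNPL flox/flox;Stra8-cre, in which Hnrnpl, the gene of an RNA-binding protein that regulates splicing, is floxed and Cre is driven by the germ cell promoter of Stra8. The 3 other libraries are wild type, so the groups differ in the floxed alleles and in the transgene together. Ovaries were lysed whole after a hormone challenge that the labels do not describe, and somatic cells, in which this promoter is not known to drive Cre, are part of every library. The labels leave unsaid if each library is of another animal, so p-values measure only the spread between these libraries.

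Values are FPKM, which set the fragments of a gene against the length of its transcript and the mapped fragments of its library. Depth, estimated from the smallest steps in these values, came to 7200000 fragments in cKO replicate 1, to 10800000 and 12200000 in the other cKO libraries and to between 11100000 and 14400000 in the wild type libraries. For a transcript of 1 kb, 1 FPKM then stood for about 7.2 to 14.4 fragments. Hnrnpl itself measured 100.5, 81.5 and 85.2 FPKM in cKO replicates 1 to 3 and 104.1, 93.8 and 101.9 FPKM in wild type replicates 1 to 3, and these ranges overlapped. The summed FPKM of 5 germ cell markers (Ddx4, Dazl, Mael, Dppa3 and Sycp3) was 192.1, 142.5 and 100.1 in cKO replicates 1 to 3, against 81.25, 97.71 and 88.43 in wild type replicates 1 to 3. That of 5 pregranulosa markers was 323.2, 255.3 and 268.3 in cKO replicates 1 to 3, against 266.8, 269.5 and 276.0 in wild type replicates 1 to 3, so both defining cell types of the ovary were present. Among the pregranulosa markers, Foxl2 and Amhr2 were higher and Lhx9 and Wt1 lower in every cKO library than in any wild type library. The groups of Wnt4 overlapped. In the germ cell list Dazl and Sycp3 were higher in every cKO library, while the groups of Ddx4, Mael and Dppa3 overlapped. The sum of 4 oocyte markers was 21.6 to 40.9 in cKO and 34.0 to 39.8 in wild type, that of 4 stroma markers 270.9 to 279.4 in cKO and 350.9 to 379.7 in wild type, and that of 3 surface epithelium markers 52.0 to 80.9 in cKO and 97.0 to 116.5 in wild type. That of 3 endothelium markers was 36.8 to 42.8 in cKO and 46.5 to 57.2 in wild type, and that of 5 erythroid markers 462.6 to 533.8 in cKO and 771.7 to 836.0 in wild type, in both with no overlap of the sums. Taken singly, the erythroid markers Hbb-bt, Hbb-bs, Hba-a1, Hba-a2 and Alas2 all had overlapping groups. The mean of Hbb-bs was higher in cKO and those of the others lower. Cdh5 and Egfl7 of the endothelium list were lower in every cKO library, while the groups of Pecam1 overlapped. The stroma markers Pdgfra, Col1a1, Col5a2 and Nr2f2 were each lower in every cKO library than in any wild type library. In the oocyte list Zp3 was at 2.05, 2.41 and 2.12 FPKM in cKO and 9.47, 9.63 and 5.69 FPKM in wild type. Gdf9 was also lower in every cKO library, while the groups of Figla and Nobox overlapped. In the surface epithelium list Upk1b was at 4.70, 2.67 and 3.40 FPKM in cKO and 12.5, 11.7 and 10.4 FPKM in wild type. Upk3b and Krt19 were also lower in every cKO library. Zp3 and Upk1b passed the test used below (adjusted p = 0.0437 and 0.0428, limma). The 3 testis supporting cell markers were too low to be tested. Dmrt1 was higher in every cKO library than in any wild type library, the groups of Dhh overlapped and Sry was at 0 throughout. No marker of the germ cell, pregranulosa, oocyte, stroma, surface epithelium or endothelium lists was at 0 in any library. The part that the marker differences have in the results below was not tested. In whole tissue, fewer cells of a type and less RNA per cell cannot be told apart.

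All 78 genes were measurable. Their mean levels over the 6 libraries had a median of 10.4 FPKM, against 7.3 FPKM for the 12442 genes whose mean reached 1 FPKM and that were tested, and all 78 passed that filter. The levels spanned 20.2-fold between the highest and the lowest gene, although the ribosome holds most of these proteins in equal number. The 13 genes whose mean reached 20 FPKM and the 11 with a mean under 5 FPKM both held proteins of either subunit. Across the 78 genes, which are not independent replicates, the log2 level and the log2 transcript length had a Pearson's r of -0.517 and a Spearman's rho of -0.441. FPKM is divided by length, so the 2 measures share that term.

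The 3 highest genes encode large subunit proteins. Mrpl52, specific to mitochondria, measured 73.2, 49.4 and 46.8 FPKM in cKO replicates 1 to 3 and 43.4, 26.8 and 41.5 FPKM in wild type replicates 1 to 3. Mrpl13, a homolog of a bacterial protein, measured 49.3, 28.4 and 35.0 FPKM in cKO replicates 1 to 3 and 26.9, 26.9 and 25.3 FPKM in wild type replicates 1 to 3. Mrpl30, likewise of bacterial descent, measured 35.9, 34.3 and 29.8 FPKM in cKO replicates 1 to 3 and 27.9, 26.6 and 25.1 FPKM in wild type replicates 1 to 3. In each of the 3 genes every cKO library was above every wild type library, and the differences of 0.59, 0.46 and 0.32 on the log2(FPKM + 1) scale did not pass the test (adjusted p = 0.318, 0.331 and 0.279, limma with Benjamini-Hochberg adjustment). The differences were 0.39, 0.25 and 0.26 without cKO replicate 1 (adjusted p = 0.379, 0.277 and 0.208, limma).

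The 3 lowest genes also had values well above 0 in every library. Mrpl19 measured 2.80, 2.74 and 2.47 FPKM in cKO replicates 1 to 3 and 2.08, 1.80 and 2.02 FPKM in wild type replicates 1 to 3. Mrpl35 measured 3.82, 2.35 and 3.05 FPKM in cKO replicates 1 to 3 and 2.59, 3.13 and 3.09 FPKM in wild type replicates 1 to 3, so its groups overlapped, and its fold change of 0.04 was -0.09 without cKO replicate 1. Mrps25 measured 3.28, 3.19 and 3.36 FPKM in cKO replicates 1 to 3 and 2.63, 2.91 and 2.78 FPKM in wild type replicates 1 to 3. Mrpl19 and Mrps25 were a little higher in all cKO libraries than in any wild type library, by 0.31 and 0.18 on the log2(FPKM + 1) scale, which did not pass the test (adjusted p = 0.303 and 0.451, limma).

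The study's contrast, cKO over wild type, asked how the transcriptome differs when Hnrnpl is deleted in germ cells. None of the 78 genes passed the test at an adjusted p under 0.05. Among all 12442 tested genes 15 were called, which is 0.121%, with 6 higher and 9 lower in cKO, and 0 of 78 is close to that share. The adjusted p of the 78 genes lay between 0.127 and 0.972. At an unadjusted p under 0.05, 22 genes were higher and 1 was lower in cKO, which is 28.2% and 1.28% of the set, beside 9.89% and 4.26% of all tested genes. A fold change is given as the difference of log2(FPKM + 1), a scale on which genes of low level seem to change less than they do.

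Although no single gene passed, the set as a whole lay on the higher side in cKO. The fold change was above 0 in 65 of 78 genes (83.3%) and in 65.2% of all tested genes. The median was 0.19 on the log2 scale, against 0.08 over all tested genes. The typical size was small: 38 genes differed by less than 0.2 in either direction, and 9 were higher by at least 0.5 (Mrps35, Mrps34, Mrps26, Mrps24, Mrpl57, Mrpl54, Mrpl52, Mrpl40 and Mrpl34). The standard error of a single gene's fold change had a median of 0.166. All 3 cKO libraries were above all 3 wild type libraries in 22 genes (28.2%), beside 15.5% of all tested genes, and no gene had all cKO libraries below all wild type libraries, beside 7.03%.

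The shift was largest in 1 library. cKO replicate 1 held the highest of the 6 values in 66 of the 78 genes (84.6%), and in 58.0% of all tested genes. The median deviation of the 78 genes from their mean over libraries was 0.379 in cKO replicate 1, 0.003 and -0.023 in cKO replicates 2 and 3, and -0.109, -0.083 and -0.109 in the wild type libraries, on the log2(FPKM + 1) scale. For all tested genes the same value was 0.197 in cKO replicate 1 and between -0.068 and -0.016 in the other 5 libraries. The set therefore stood higher in cKO replicate 1 than the tested genes did, and it lay near its mean in the other cKO libraries and below it in the wild type libraries. The summed FPKM of the 78 genes was 1337.9, 948.9 and 934.0 in the cKO libraries and 894.9, 887.7 and 867.8 in the wild type libraries. As a share of all FPKM in the library, the sum was 0.399%, 0.400% and 0.379% in the cKO libraries and 0.378%, 0.397% and 0.362% in the wild type libraries, and these shares overlapped.

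**Figure D1:**
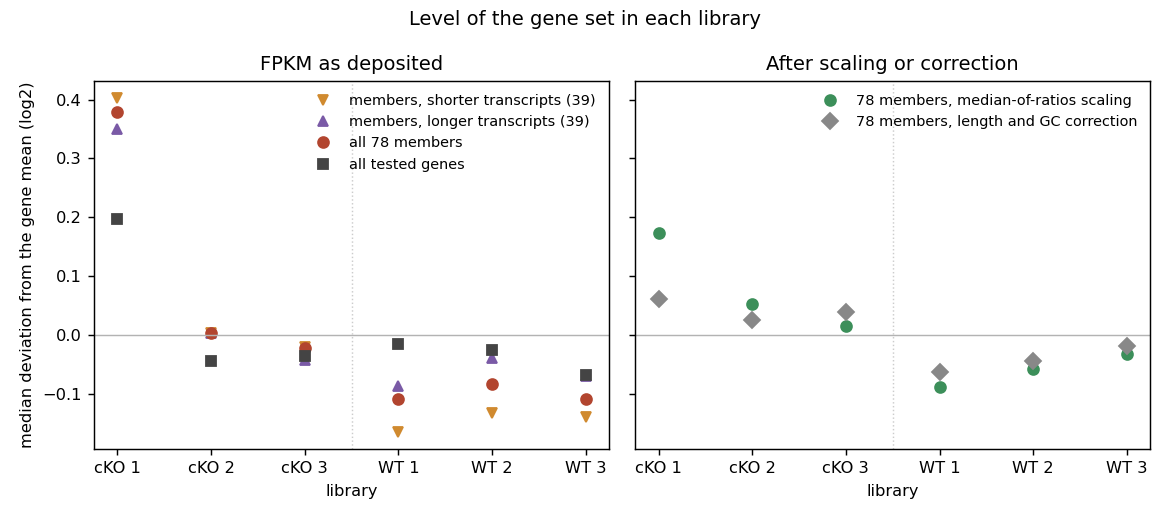
Median deviation of gene levels from each gene's mean over the 6 libraries (log2 scale, vertical axis) by library (horizontal axis, cKO then wild type), as deposited on the left and after scaling or correction on the right; each point is a median over genes. In cKO replicate 1 the median of the 78 genes is 0.379 as deposited, 0.174 after median-of-ratios scaling and 0.061 after correction for length and GC content.

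Short transcripts ran high in cKO replicate 1, and most of these genes have short transcripts. The longest annotated transcript had a median of 1302 bp in the 78 genes and of 3111 bp in the tested genes. In the sixth of tested genes with the shortest transcripts, which held 48 of the 78, the median deviation of cKO replicate 1 was 0.36 for the tested genes and 0.399 for the 48. The 39 genes of the set with the shorter transcripts deviated by 0.403 in that library and the 39 with the longer ones by 0.35. Within the set, transcript length and the excess of cKO replicate 1 over the other cKO libraries had a Pearson's r of -0.201 and a Spearman's rho of -0.138 (78 genes, a description). The median fold change between cKO and wild type in that shortest sixth was 0.17 for the tested genes and 0.228 for the 48. The same medians over the longer sixths, which held 2 to 8 of the 78 each, ran from 0.011 to 0.119 for the tested genes and from -0.002 to 0.309 for the set. In each of these sixths too, cKO replicate 1 deviated more in the set (0.231 to 0.428) than in tested genes of like length (0.061 to 0.29). Across the 78 genes, length and the fold change of cKO over wild type had a Pearson's r of -0.109, and of -0.023 without cKO replicate 1. The part of length in the result was not tested.

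Without cKO replicate 1 the shift was smaller. The median fold change of the 78 genes was 0.06, against -0.00 over the 12411 genes then tested, and 45 of 78 (57.7%) were above 0, beside 49.8% of tested genes. No gene of the set passed the test (lowest adjusted p = 0.105, limma), while 89 genes of the table, or 0.717%, were called. Of the 65 genes above 0 with all libraries, 64 had a smaller fold change and 20 of those were below 0. The 13 genes below 0 with all libraries were below 0 again. The fold changes with and without that library had a Pearson's r of 0.943 across the 78 genes, with 5 of 6 libraries in common.

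**Figure D2:**
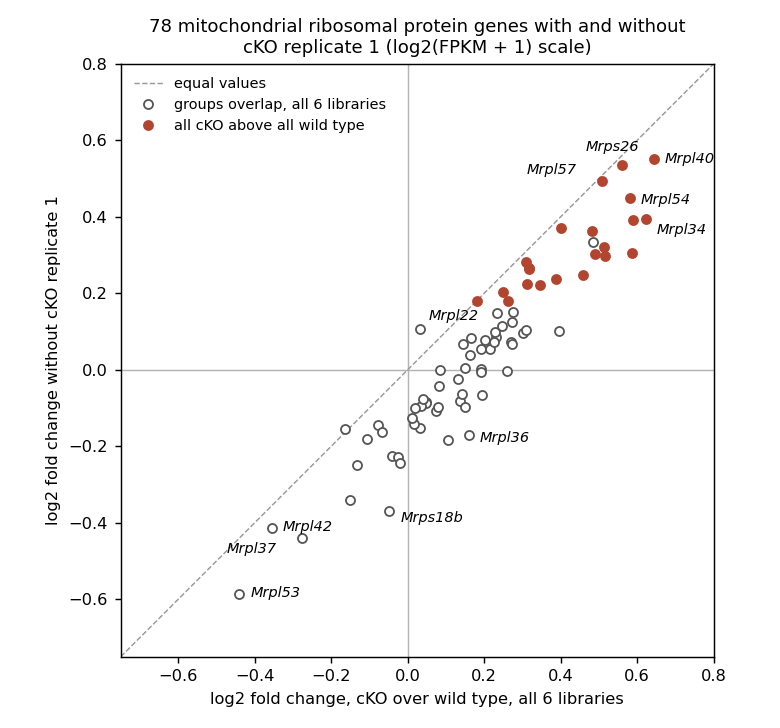
Fold change of cKO over wild type on the log2(FPKM + 1) scale for the 78 genes, with all 6 libraries (horizontal axis) and without cKO replicate 1 (vertical axis); filled points are the 22 genes with every cKO library above every wild type library. Nearly all points lie under the dashed line of equal values, as 76 of 78 fold changes are lower without that library.

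The 22 genes whose groups did not overlap stay apart by construction when a library is left out. No further gene joined them without cKO replicate 1, so the count of 22 (28.2%) stands beside 16.9% of tested genes with both remaining cKO libraries above all wild type libraries. With 2 cKO libraries left, 10 genes of the set lay below every wild type library (12.8%), beside 17.8% of tested genes: Mrps18b, Mrpl53, Mrpl50, Mrpl48, Mrpl45, Mrpl42, Mrpl37, Mrpl28, Mrpl10 and Mrpl1. The 22 higher genes held 12 proteins of the large and 10 of the small subunit, while 9 of the 10 lower ones belong to the large subunit. That split was not tested.

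Median-of-ratios scaling, which divides each library by its typical ratio to the gene means, left the set slightly above the other genes. After it, the median fold change was 0.11, against 0.00 for all tested genes, and 54 genes were above 0, beside 50.0%. All cKO libraries were above all wild type libraries in 19 genes, beside 12.6% of tested genes, and below them in 4 (Mrpl53, Mrpl50, Mrpl42 and Mrpl37), beside 13.0%. No gene passed (lowest adjusted p = 0.0587, limma), while 161 genes of the table did (1.29%). With each library corrected for transcript length and GC content, the median was 0.06, against -0.00, and 48 genes were above 0, beside 49.7% of tested genes. Rescaling to TPM moved the median of all tested genes by -0.192, to -0.115, and that of the set to -0.006. With 38 genes above 0 the majority direction is not kept on that scale, though the set's median stayed above that of all tested genes. The median of the set minus that of all tested genes was 0.114 as deposited, 0.108 after median-of-ratios scaling, 0.109 in TPM, 0.059 after the length and GC correction and 0.062 without cKO replicate 1.

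Among single genes, the smallest p belonged to Mrpl40, a protein of the large subunit specific to mitochondria, whose gene lies on chromosome 16 from 18872018 to 18876637 on the minus strand (RefSeq, GRCm38.p6). Its transcript measured 10.5, 9.77 and 7.45 FPKM in cKO replicates 1 to 3 and 5.06, 5.88 and 5.63 FPKM in wild type replicates 1 to 3, with no overlap. That is 9.26 ± 1.61 FPKM over the cKO libraries and 5.52 ± 0.422 over the wild type libraries (SD, n = 3 each), a log2 fold change of 0.64 with a standard error of 0.13 (adjusted p = 0.127, limma). Without cKO replicate 1 it was 0.55 (adjusted p = 0.117, limma), and without cKO replicate 3 it was 0.78 and passed the test (adjusted p = 0.0444, limma), when 0.507% of tested genes were called higher. Mrpl40 had the largest positive fold change of the set. An exact permutation test of 3 against 3 libraries cannot go below a two-sided p of 0.1, which is the value it gives for groups without overlap.

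Mrpl57, which encodes another mitochondrion-specific protein of the large subunit, lies on chromosome 14 from 57826228 to 57829087 on the plus strand. It measured 5.26, 4.65 and 5.49 FPKM in cKO replicates 1 to 3 and 3.19, 3.65 and 3.09 FPKM in wild type replicates 1 to 3. Here cKO replicate 1 was not the highest library, and the log2 fold change of 0.51 was 0.49 without it (adjusted p = 0.131 and 0.125, limma). Mrps26, a mitochondrion-specific protein of the small subunit, measured 19.0, 20.7 and 15.6 FPKM in cKO replicates 1 to 3 and 13.3, 10.7 and 12.4 FPKM in wild type replicates 1 to 3. Its fold change of 0.56 likewise stayed at 0.53 without cKO replicate 1 (adjusted p = 0.155 and 0.145, limma). An exon of 4930473A02Rik overlaps Mrps26, and since the use of strand in counting is not given, reads of the 2 genes cannot be told apart.

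Mrpl54, of the large subunit, measured 27.1, 21.6 and 19.2 FPKM in cKO replicates 1 to 3 and 15.8, 13.0 and 15.3 FPKM in wild type replicates 1 to 3, a log2 fold change of 0.58 with a standard error of 0.15 (adjusted p = 0.176, limma). Without cKO replicate 1 it was 0.45 (adjusted p = 0.122, limma). After correction for length and GC content, with all libraries, it was 0.39 and passed (adjusted p = 0.0305, limma), when 1.33% of tested genes were called higher. Over all alternatives the adjusted p of Mrpl54 ran from 0.0305 to 0.461. Mrps11, the homolog of a bacterial protein of the small subunit platform, measured 17.2, 18.2 and 14.2 FPKM in cKO replicates 1 to 3 and 12.5, 12.6 and 11.6 FPKM in wild type replicates 1 to 3. Its groups were apart by 0.40 with cKO replicate 1 and by 0.37 without it (adjusted p = 0.207 and 0.188, limma). Mrpl20, of bacterial descent, measured 6.88, 6.00 and 6.20 FPKM in cKO replicates 1 to 3 and 4.62, 4.75 and 5.37 FPKM in wild type replicates 1 to 3. These 3 genes share the pattern of the previous ones, with separated groups and differences of up to 0.58 that missed the threshold.

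The next 4 genes by p differed in how much cKO replicate 1 added to the fold change. Mrpl34, of bacterial descent, measured 29.3, 18.4 and 17.2 FPKM in cKO replicates 1 to 3 and 12.4, 15.9 and 12.0 FPKM in wild type replicates 1 to 3, and its fold change of 0.62 was 0.39 without that library. Mrps12, which lines the decoding centre of the small subunit, measured 17.0, 15.9 and 10.7 FPKM in cKO replicates 1 to 3 and 9.97, 9.95 and 9.91 FPKM in wild type replicates 1 to 3. The lowest cKO value of Mrps12 was thus close to the 3 wild type values, which were nearly equal. The fold change of Mrps12 was 0.48, and 0.36 without cKO replicate 1. Mrps35, specific to mitochondria, measured 15.6, 10.6 and 9.80 FPKM in cKO replicates 1 to 3 and 7.81, 6.93 and 9.23 FPKM in wild type replicates 1 to 3, with fold changes of 0.51 and, without cKO replicate 1, 0.32. Mrps28, of bacterial descent, measured 13.7, 10.8 and 11.8 FPKM in cKO replicates 1 to 3 and 9.65, 9.16 and 9.67 FPKM in wild type replicates 1 to 3. The fold change of Mrps28 was 0.31, and 0.22 without cKO replicate 1. None of the 4 passed the test (adjusted p = 0.253, 0.262, 0.274 and 0.274, limma).

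Mrpl53 ran the other way. This mitochondrion-specific protein of the large subunit is encoded on chromosome 6 from 83109108 to 83109932 on the plus strand. Its transcript measured 8.61, 6.02 and 6.18 FPKM in cKO replicates 1 to 3 and 8.17, 9.88 and 11.1 FPKM in wild type replicates 1 to 3, so that cKO replicate 1 overlapped the wild type range and the other cKO libraries were below it. The log2 fold change was -0.44 with a standard error of 0.16 (adjusted p = 0.284, limma), the most negative of the set, and -0.59 without cKO replicate 1 (adjusted p = 0.105, limma). It passed the test after correction for length and GC content (-0.63, adjusted p = 0.0371, limma), when 1.08% of tested genes were called lower, and in TPM (-0.68, adjusted p = 0.0415, limma), when 0.747% were. With that correction but without cKO replicate 1, neither Mrpl53 nor Mrpl54 passed (adjusted p = 0.0833 and 0.0760, limma). Exons of Ccdc142os and Gm42688 overlap Mrpl53, and their reads cannot be told apart from its own. In 6 genes the fold change was below 0 as deposited and under all alternatives that tested the gene (Mrps27, Mrpl53, Mrpl50, Mrpl47, Mrpl42 and Mrpl37). In 37 genes it was above 0 in the same way.

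**Figure D3:**
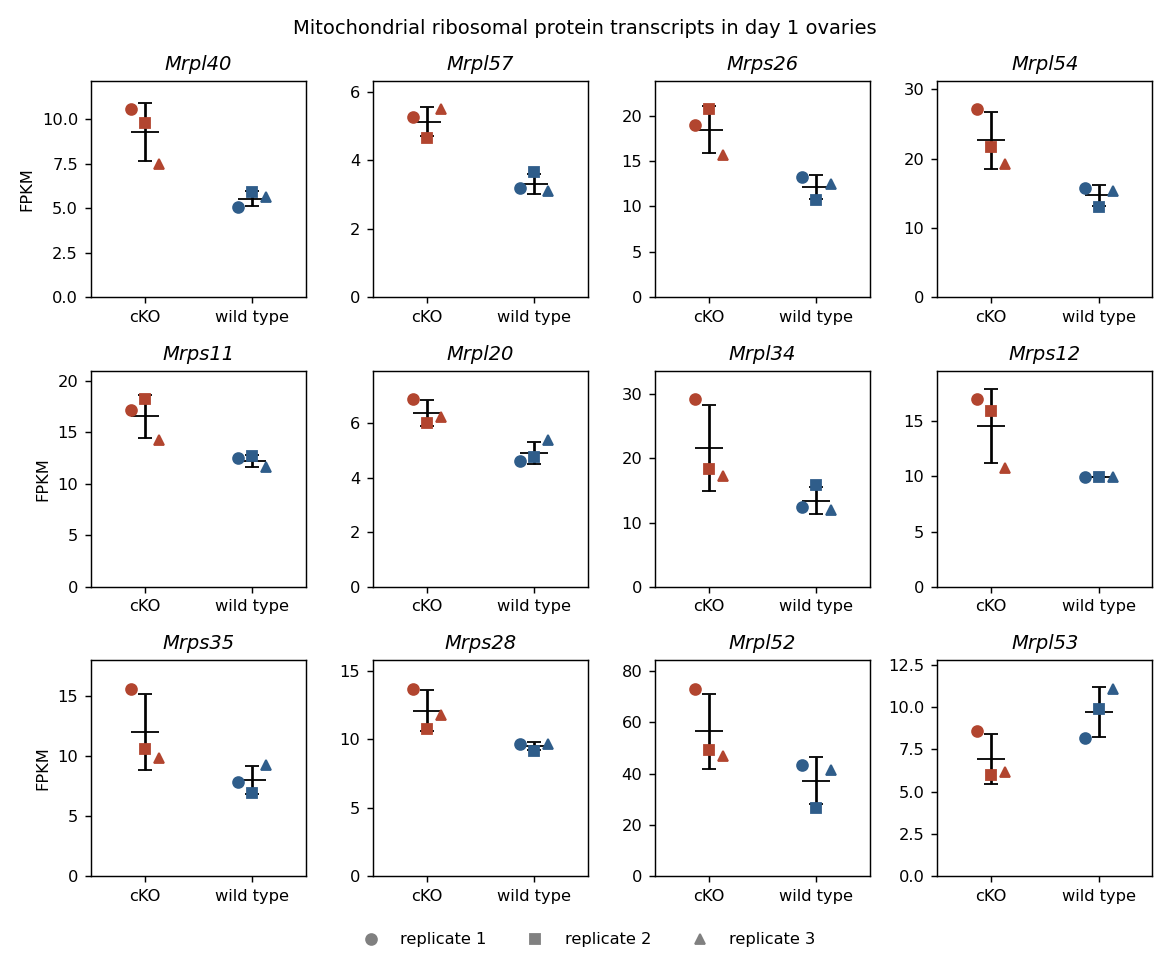
FPKM (vertical axis, from 0) of 12 mitochondrial ribosomal protein genes in the cKO libraries (left in each panel) and the wild type libraries (right); symbols mark the replicates, the dash is the mean and the bar the SD (n = 3 each). In 11 panels all cKO points lie above all wild type points, as for Mrpl40 with 7.45 to 10.5 against 5.06 to 5.88 FPKM, while the groups of Mrpl53 overlap.

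The stalk genes had overlapping groups. Mrpl10 and Mrpl12 form the stalk that recruits translation factors to the large subunit. Mrpl10 measured 17.7, 10.3 and 11.3 FPKM in cKO replicates 1 to 3 and 12.3, 14.3 and 12.3 FPKM in wild type replicates 1 to 3. Mrpl12 measured 28.4, 20.4 and 17.4 FPKM in cKO replicates 1 to 3 and 20.2, 17.8 and 18.5 FPKM in wild type replicates 1 to 3. In both genes cKO replicate 1 was the highest library and the groups overlapped, with fold changes of -0.02 and 0.19 (adjusted p = 0.967 and 0.619, limma), and of -0.24 and 0.00 without that library. An exon of Gm11574 overlaps Mrpl10 and one of Gm16755 overlaps Mrpl12.

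Mrps18a, Mrps18b and Mrps18c are 3 paralogs related to 1 bacterial protein, and they take different places in the ribosome. Mrps18c measured 33.2, 29.4 and 21.9 FPKM in cKO replicates 1 to 3 and 20.95, 24.1 and 23.2 FPKM in wild type replicates 1 to 3. Mrps18a measured 15.3, 15.3 and 9.08 FPKM in cKO replicates 1 to 3 and 14.0, 17.4 and 11.8 FPKM in wild type replicates 1 to 3. Mrps18b measured 16.1, 8.48 and 7.16 FPKM in cKO replicates 1 to 3 and 11.04, 10.99 and 9.14 FPKM in wild type replicates 1 to 3. Mrps18c was thus the most abundant of the 3 per length in every library, and the groups overlapped in all 3, with fold changes of -0.13 for Mrps18a, -0.05 for Mrps18b and 0.28 for Mrps18c (adjusted p = 0.788, 0.944 and 0.456, limma). They were -0.25, -0.37 and 0.15 without cKO replicate 1 (adjusted p = 0.629, 0.194 and 0.614, limma), and both remaining cKO values of Mrps18b were below all wild type values.

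The mouse counterparts of the human ovarian insufficiency genes overlapped between the groups. Mrps22 measured 13.6, 9.55 and 10.1 FPKM in cKO replicates 1 to 3 and 8.51, 9.36 and 9.72 FPKM in wild type replicates 1 to 3. Mrps7 measured 21.5, 13.2 and 14.2 FPKM in cKO replicates 1 to 3 and 11.8, 14.1 and 12.6 FPKM in wild type replicates 1 to 3. Mrpl50 measured 7.36, 6.03 and 5.72 FPKM in cKO replicates 1 to 3 and 6.80, 6.33 and 6.95 FPKM in wild type replicates 1 to 3. In all 3 the highest value was that of cKO replicate 1, and the fold changes of 0.23, 0.30 and -0.07 (adjusted p = 0.471, 0.466 and 0.794, limma) were 0.09, 0.10 and -0.16 without it.

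Transcripts for proteins of bacterial descent and of the small subunit lay somewhat higher than the others. The median fold change was 0.25 in the 26 small subunit genes, with 23 above 0, and 0.16 in the 51 large subunit genes, with 41 above 0. It was 0.23 in the 46 genes with a bacterial homolog, with 43 above 0, and 0.14 in the 31 mitochondrion-specific genes, with 21 above 0. All 16 small subunit genes with a bacterial homolog were above 0, with a median of 0.27, and 7 of the 10 mitochondrion-specific ones were. Without cKO replicate 1 the medians were 0.10 for the small and 0.00 for the large subunit, and 0.07 and -0.01 for genes with and without a bacterial homolog. Transcripts had a median length of 1190.5 bp in genes with a bacterial homolog and 1424 bp in mitochondrion-specific ones. It was 1300.5 bp for the small and 1316 bp for the large subunit. The differences between classes are descriptions, and neither they nor the part of length in them were tested. The 26 genes that overlap an exon of another gene, among them Mrps7, Mrps18b, Mrps18c, Mrps25, Mrpl13 and Mrpl19, may hold reads of that gene; they had a median of 0.19, and the 52 without such an overlap had one of 0.22.

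**Figure D4:**
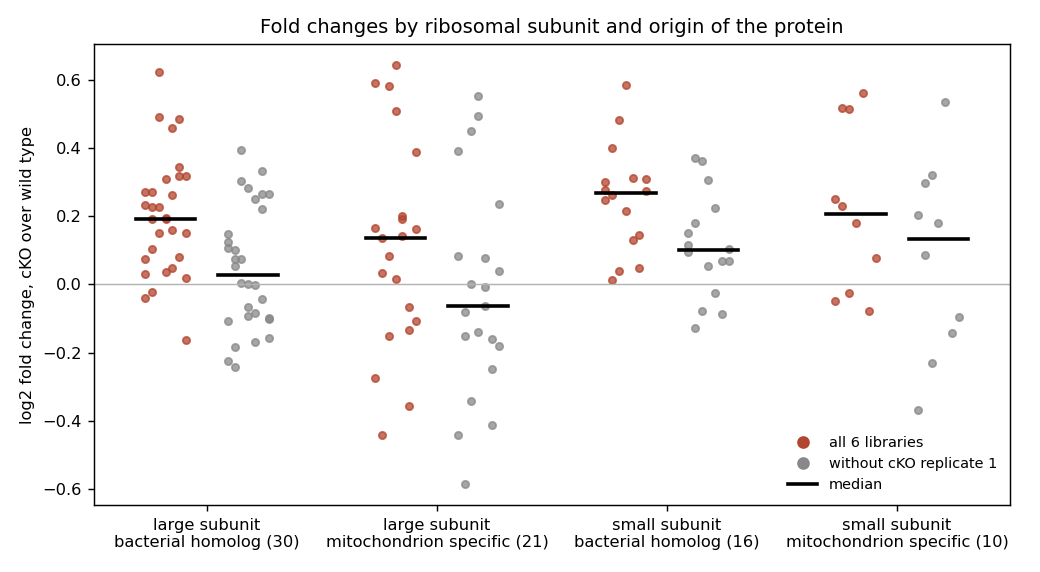
Log2 fold change of cKO over wild type (vertical axis) for the 77 ribosomal subunit genes in 4 classes by subunit and descent (horizontal axis); each point is a gene, with all 6 libraries and without cKO replicate 1 side by side, and the bar is the median. Without cKO replicate 1 every class median is closer to 0, and Mrps36, which is no ribosomal subunit, is left out.

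The genes lie on 17 chromosomes, and many share a promoter region with a neighbour that is read in the opposite direction. A neighbouring gene started within 1000 bp on the other strand in 19 of the 78 (24.4%), and in 1197 of 9764 tested genes of known strand (12.3%). Strand was taken from promoter windows, which 69 of the 78 genes have, so the 2 shares have unlike denominators. The closest pair within the set is Mrps11 and Mrpl46 on chromosome 7, whose starts lie 42 bp apart (RefSeq, GRCm38.p6). Mrps11 was higher in every cKO library, while Mrpl46 measured 6.71, 5.40 and 5.59 FPKM in cKO replicates 1 to 3 and 6.23, 4.12 and 6.38 FPKM in wild type replicates 1 to 3, with fold changes of 0.40 and 0.08. Mrps12 starts 136 bp from Sars2, the gene of the mitochondrial seryl-tRNA synthetase. Sars2 measured 3.04, 3.32 and 2.46 FPKM in cKO replicates 1 to 3 and 4.17, 3.19 and 3.18 FPKM in wild type replicates 1 to 3, a fold change of -0.20 beside 0.48 for Mrps12. Mrpl40 starts 113 bp from Hira, a histone chaperone gene, which measured 8.32, 8.37 and 7.99 FPKM in cKO replicates 1 to 3 and 8.01, 7.74 and 8.11 FPKM in wild type replicates 1 to 3, a fold change of 0.04 beside 0.64. These 3 pairs were chosen after their values were seen, and the difference within a pair was not tested. Other pairs had closer values, such as 0.27 for Mrpl32 and 0.26 for Psma2, a proteasome subunit, and 0.14 for Mrpl49 and 0.16 for Fau, a ribosomal protein gene. In 17 of the 19 the neighbour was tested too, and the sign was the same in 12, with Mrps11 and Mrpl46 counted once each. The fold change was above 0 in 83.3% of the 78 genes and in 65.2% of all tested genes. Agreement of signs beyond these shares was not tested.

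Stretches between 2 pairs of such starts, and 1 before the start of Mrpl57, are shown to make plain how little sequence the paired genes have between them. They are from RefSeq on GRCm38.p6, printed 5′ to 3′ on the strand of the gene named first, with bases in annotated exons left out. The first is chr7:78783090-78783118, plus strand, 29 bp of the gap, the rest being exon, and holds none of the motifs marked here. The second is chr7:28741822-28741956, minus strand, 135 bp, where capitals mark 3 matches to CCAAT. The last is the 64 bp before the start of Mrpl57, chr14:57826164-57826227, plus strand, where capitals mark a match to the NRF1 motif.
Mrps11 to Mrpl46: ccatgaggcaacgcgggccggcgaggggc
Mrps12 to Sars2: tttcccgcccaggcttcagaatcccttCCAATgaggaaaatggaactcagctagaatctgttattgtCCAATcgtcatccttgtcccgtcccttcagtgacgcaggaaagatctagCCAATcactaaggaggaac
Mrpl57: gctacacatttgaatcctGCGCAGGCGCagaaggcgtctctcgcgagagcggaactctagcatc

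Motifs were searched on both strands in the RefSeq promoter windows, which run from 250 bases before to 50 bases after a start. Windows were found for 69 of the 78 genes, 75 in all, and are set beside all 22339 windows of the table. The ETS motif CCGGAAG was in 34.7% of the windows of these genes and in 11.5% of all windows. The NRF1 motif, GCGCA and GCGC with 1 base of any kind between them, was in 17.3% and in 6.33%, and the YY1 motif AAGATGGCG in 10.7% and in 1.82%. CCAAT was in 30 of the 75 windows and in 38.3% of all windows. No motif's letters contain those of another. The median GC content was 58.7% in these windows and 56.3% in all windows, and the table includes genes that the ovary does not express, so these shares are a description and not a test.

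Other genes of mitochondrial translation had no called member either. The 5 subunits under other symbols (Dap3, Ptcd3, Chchd1, Aurkaip1 and Gadd45gip1) all had fold changes above 0, with a median of 0.19, and of 0.04 without cKO replicate 1. Those with the smallest p were Chchd1, Gadd45gip1 and Aurkaip1, with fold changes of 0.26, 0.32 and 0.19 (adjusted p = 0.390, 0.464 and 0.560, limma). Chchd1 averaged 18.9 ± 0.586 FPKM over the cKO and 15.7 ± 2.63 FPKM over the wild type libraries (SD, n = 3 each). Of 28 assembly factors measured, 27 were tested and none passed, with 21 above 0 and a median of 0.09. Malsu1, which keeps an immature large subunit from joining the small one, averaged 22.9 ± 6.51 FPKM over the cKO and 14.2 ± 1.67 FPKM over the wild type libraries (adjusted p = 0.231, limma, n = 3 each). Mtg2, a GTPase of large subunit assembly, and Rbfa, a factor of small subunit maturation, had fold changes of 0.53 and 0.36 (adjusted p = 0.274 and 0.317, limma). None of the 15 translation factors passed, with 13 above 0 and a median of 0.10. Tufm, the mitochondrial elongation factor that brings tRNA to the ribosome, averaged 15.9 ± 2.04 FPKM over the cKO and 12.7 ± 0.181 FPKM over the wild type libraries (adjusted p = 0.313, limma, n = 3 each). Taco1, a translational activator, and Tsfm, the exchange factor of Tufm, had fold changes of 0.21 and 0.34 (adjusted p = 0.462 and 0.469, limma). All 3 lists thus lay above 0 with all libraries, as all tested genes did, and their medians without cKO replicate 1 were 0.04, 0.00 and 0.04.

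Lists of mitochondrial content had no called gene either. None of the 14 genes of import and mitochondrial mass passed, with 13 above 0, a median of 0.24, and of 0.09 without cKO replicate 1. Hspd1, a chaperonin of the matrix, averaged 44.6 ± 6.35 FPKM over the cKO and 34.6 ± 2.55 FPKM over the wild type libraries (adjusted p = 0.301, limma, n = 3 each). Tomm20, a receptor of the outer membrane, and Vdac2, a pore of that membrane, had fold changes of 0.30 and 0.35 (adjusted p = 0.349 and 0.396, limma). Of 12 genes of mitochondrial transcription and DNA maintenance measured, 11 were tested, none passed, and the median was 0.18, with 0.13 without cKO replicate 1. Tfam, which packages mitochondrial DNA, was at 0.27, Polrmt, the RNA polymerase, at 0.24 and Polg2, a DNA polymerase subunit, at -0.28 (adjusted p = 0.374, 0.460 and 0.432, limma). None of the 8 tested regulators of nuclear genes for mitochondria passed either, with a median of 0.10. The transcription factors Myc and Yy1 and the coactivator Pprc1 had fold changes of -0.26, 0.18 and 0.19 (adjusted p = 0.379, 0.436 and 0.459, limma). The 81 tested genes of cytosolic ribosomal proteins, whose transcripts are also short (median 906 bp), had a median of 0.18, with 69 above 0 and none called, and of -0.00 without cKO replicate 1. The mitochondrial ribosomal genes, beside these, had medians of 0.19 and, without that library, 0.06. Transcripts encoded by mitochondrial DNA, among them the ribosome's own templates, were searched for under their common symbols. No row carried any of these symbols, so these transcripts were not analysed here.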

How the data were processed

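The authors deposited 1 table of FPKM values with 6 library columns, which were matched to samples by title. Of tools, the submitters' processing notes list featureCounts 2.0.6, HISAT2 2.2.1 and STAR 2.7.11a, and as build mm10, with no role for any. The sources used here do not give what computed FPKM, which annotation was used or whether counting used strand. FPKM keeps no counts, so depth was estimated from its smallest steps in 2440 genes with 1 transcript that is 1500 bp or longer, taking fragments as 200 bp; 61.1% to 73.1% of values were within 0.1 of a whole fragment, so no count test was run.

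Genes whose mean reached 1 FPKM were compared on log2(FPKM + 1) with limma 3.58.1 (R 4.3.3), with an intensity trend, two-sided, with Benjamini-Hochberg adjustment over all tested genes and a threshold of 0.05. The steps were tested on simulated data. Lengths and GC contents are those of GENCODE M21, and coordinates and promoters are from RefSeq (GRCm38.p6). The members and lists were chosen with earlier results of these data known. Genes named with all values were the 10 of smallest p, the largest difference each way and the 3 highest and 3 lowest by mean FPKM. The Mrps18 paralogs, the stalk proteins, 3 human disease genes and those called in any alternative were added. From the mitochondrial lists the 3 of smallest p were named, with means or fold changes only. From the marker lists, called genes were named with all values and other markers by direction or overlap only. Genes in shared promoter regions were chosen after their values were seen. Alternatives were another pseudocount, other filters, median-of-ratios, quantile and TPM scaling, a length and GC correction, library weights, no trend, dropping each library in turn and a replicate block.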

Additional observations from a re-analysis of the deposited data

How the results depend on the processing

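The count of called genes in the whole table, 15 as reported (6 higher, 9 lower), depended on nearly every choice. It was 34 with a pseudocount of 0.1 FPKM, 5 without a filter, 23 with a filter at 5 FPKM, 161 after median-of-ratios scaling, 236 after quantile normalization, 149 in TPM, 294 after the length and GC correction, 5 without the trend and 172 with library weights. Leaving out 1 library gave 2 to 89. Without cKO replicate 1 it was 95 with median-of-ratios scaling and 117 with the length and GC correction, which was chosen after seeing the data. Of the 78 genes, 0 passed as reported, 1 in TPM, 2 after the length and GC correction, and 0 to 1 when 1 library was left out. Their median fold change was -0.006 in TPM and 0.061 to 0.275 when 1 library was left out. Same-numbered libraries did not deviate together (correlations of -0.011, 0.039 and 0.068), so the numbers were not taken as pairs; with the replicate block, 2 genes of the table and 0 of the 78 passed. Of 25 named genes, 20 kept their sign in every one of the 18 alternatives in which they were tested. Mrpl57, Mrpl19, Mrps25 and Mrpl35 were not tested with the filter at 5 FPKM. Mrpl35 turned to -0.0331 with median-of-ratios scaling, -0.0044 with quantile normalization, -0.153 in TPM, -0.0571 with the length and GC correction, -0.0731 with library weights, -0.091 with median-of-ratios scaling and -0.0968 with the length and GC correction, both without cKO replicate 1, and -0.0933 to 0.169 when 1 library was left out. Mrpl12 was -0.00864 in TPM and -0.0238 with the length and GC correction without cKO replicate 1. Leaving out 1 library gave -0.368 to 0.167 for Mrps18b, -0.242 to 0.121 for Mrpl10 and -0.256 to 0.0986 for Mrps18a. The cause was not tested. Depth limits genes that are both low and short most: in cKO replicate 1, 1 FPKM of a 1 kb transcript stood for about 7.2 fragments. The lowest genes by FPKM have long transcripts, of 5000 bp in Mrpl19, 3721 bp in Mrpl35 and 6073 bp in Mrps25.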

Other observations

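2610507I01Rik, a gene read away from Mrpl55 with its start 55 bp from that of Mrpl55 on chromosome 11, was chosen after its values were seen. It measured 0.486, 0.412 and 0.454 FPKM in cKO replicates 1 to 3 and 3.001, 3.20 and 2.66 FPKM in wild type replicates 1 to 3, a difference of -1.44 on the log2(FPKM + 1) scale. It reached the mean of 1 FPKM for testing only through the wild type libraries, so these values are a description, with no test. Mrpl55, which encodes a large subunit protein of bacterial descent, measured 10.9, 8.65 and 9.21 FPKM in cKO replicates 1 to 3 and 6.49, 8.52 and 9.08 FPKM in wild type replicates 1 to 3, with overlapping groups and a fold change of 0.23 (adjusted p = 0.474, limma). The neighbour was the lower of the pair in all 6 libraries, and its difference was -1.46 without cKO replicate 1.

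Mrps36, whose protein belongs to a dehydrogenase complex of the citric acid cycle and not to the ribosome, measured 12.9, 7.05 and 6.01 FPKM in cKO replicates 1 to 3 and 6.14, 6.06 and 5.81 FPKM in wild type replicates 1 to 3. Its fold change of 0.40 was 0.10 without cKO replicate 1, which alone stood apart from the other 5 libraries. Mrpl22 was the only gene with a positive fold change that was larger without that library, 0.11 against 0.03, and its values in cKO (8.95, 11.1 and 10.2 FPKM) overlapped those in wild type (9.60, 11.1 and 8.87 FPKM).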
